A study of Homo sapiens with 6 samples.

Results

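The replication-dependent histone genes were described in cells labelled SKOV3, an ovarian carcinoma line of human origin. They were taken as all gene symbols that begin with HIST1H, HIST2H, HIST3H or HIST4H, which gave 71 of the 20030 symbols in each table. The vehicle group held 3 samples of cells kept for 24 h with 5% trehalose. The other group held 3 samples kept for 24 h with rhCCL20, the recombinant human form of the chemokine CCL20, in the same 5% trehalose, so that trehalose was shared by both groups. The dose of rhCCL20 is not given in the sources used here. Separate cultures are not stated for the replicates in the labels. The p-values therefore cover the spread among these 6 samples and no more, and that spread may be technical. In bulk RNA, fewer cells that express a gene and less of its RNA per cell cannot be told apart. Values are FPKM, fragments scaled to gene length and to the mapped total of the library, and the absolute depth is unknown.

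Replication-dependent histone genes supply the linker histone H1 and the core histones H2A, H2B, H3 and H4, on which newly copied DNA is wound during S phase. They lie in clusters, and most lack introns. Their messenger RNAs characteristically end in a short stem-loop, bound by the protein SLBP, instead of a poly(A) tail. Some of these genes are also known to give longer, polyadenylated transcripts that run past the stem-loop. A library made from poly(A) RNA holds little of the stem-loop form. The labels name a TruSeq RNA kit and total RNA, and whether poly(A) RNA was selected is not given in the sources used here.

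The libraries were alike in size, and their estimated depth tended to be higher with rhCCL20. The summed FPKM lay between 301805 and 310080. Depth relative to vehicle replicate 1, read from genes whose low values look like single fragments, was 0.943 and 0.977 in vehicle replicates 2 and 3. It was 1.01, 1.06 and 1.09 in rhCCL20 replicates 1 to 3, so rhCCL20 replicate 1 nearly matched vehicle replicate 1. Each of these values was a median over 41 to 61 genes, with no spread estimated. On the first principal component, with 38.8% of the variance, rhCCL20 replicate 3 stood apart at 11.7, where the others lay between -3.96 and -0.74. SKOV3 is known for amplified ERBB2 and deleted CDKN2A, yet ERBB2 averaged 7.83 FPKM and CDKN2A 16.4 FPKM over the 6 libraries, so the line is called by its label. KRT8 averaged 641 FPKM and VIM 340 FPKM, while EPCAM, CDH1, WT1 and PAX8 averaged 0.017, 0.175, 0.014 and 0.173 FPKM. The 8 blood cell markers, of leukocytes and, with HBB, of red cells, summed to 1.30 to 11.9 FPKM in vehicle and 6.12 to 8.75 FPKM with rhCCL20. None was at 0 in every library. In replicates 1 to 3, LYZ was at 5.24, 0.692 and 0.469 FPKM in vehicle and 3.58, 2.92 and 4.27 FPKM with rhCCL20. S100A9 was at 3.41, 0.220 and 0.143 FPKM in vehicle and 2.81, 2.15 and 2.80 FPKM with rhCCL20. These 2 were tested and 0 passed, with log2 fold changes of 0.87 for LYZ and 0.96 for S100A9 (limma adjusted p of 0.937 each). The other markers were not tested and did not share 1 direction. From vehicle to rhCCL20, means were lower for PTPRC (0.229 to 0.206 FPKM), CD3E (0.17 to 0.15), CD79A (0.061 to 0.046) and HBB (0.202 to 0). They were higher for CD14 (0.310 to 0.379 FPKM) and S100A8 (0.542 to 0.581). The 5 fibroblast markers summed to 9.24 to 9.72 FPKM in vehicle and 9.05 to 9.22 FPKM with rhCCL20.

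The stem-loop is shown first because it is the element that sets these transcripts apart from other messenger RNAs. A stem-loop of 16 bases, with paired arms around a T-rich loop and 3 free positions, was searched on the transcribed strand of all GENCODE 29 transcripts. It was found under 40 of 57133 gene names, of which 31 were members, 3 were other HIST genes and 6 lay outside the family. For 35 of the 71 members the coding transcripts annotated end at the stop codon, so a missing match says nothing of the gene. The sequences below are from the longest matching transcript of abundant, scarce and undetected members, with the stem-loop in capitals and T for U.
HIST1H2AC: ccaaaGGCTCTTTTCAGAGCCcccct
HIST3H2A: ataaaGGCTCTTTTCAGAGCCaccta
HIST2H2BE: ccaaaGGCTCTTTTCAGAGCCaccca
HIST1H2BD: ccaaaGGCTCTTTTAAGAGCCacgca
HIST1H2AG: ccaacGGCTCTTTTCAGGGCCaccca
HIST1H4H: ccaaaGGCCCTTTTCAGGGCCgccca
HIST1H4I: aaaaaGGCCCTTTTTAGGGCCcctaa
HIST1H2BL: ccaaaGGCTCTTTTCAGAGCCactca
HIST1H2BE: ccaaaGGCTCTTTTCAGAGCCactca
The 31 members shared 5 forms of the stem-loop. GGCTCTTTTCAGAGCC was the form of 17 members of classes H2A, H2B and H3, and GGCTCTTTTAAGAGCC that of 5 H2B and H3 genes. All 8 H4 genes with a match had either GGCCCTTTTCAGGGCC, in 5 genes, or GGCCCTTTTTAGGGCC, in 3. HIST1H2AG alone had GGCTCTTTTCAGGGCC. HIST1H2BL and HIST1H2BE have the same 26 bases here, although HIST1H2BL was detected in every library and HIST1H2BE was listed at 0 in every library.

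Few of the histone genes were abundant. Of the 71, 16 were listed at 0 in all 6 libraries, 29 were above 0 with a mean under 1 FPKM, and 26 had a mean of at least 1 FPKM. Of these 26 genes, 14 reached a mean of 5 FPKM. Between 42 and 47 members were above 0 in a library. The members together summed to 382 to 411 FPKM, or 0.125% to 0.133% of all FPKM in a library. The 3 most abundant genes, HIST1H2BK, HIST1H1C and HIST1H2AC, held 62.9% to 65.2% of that sum. An exact 0 is given only as listed at 0.

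**Figure D1:**
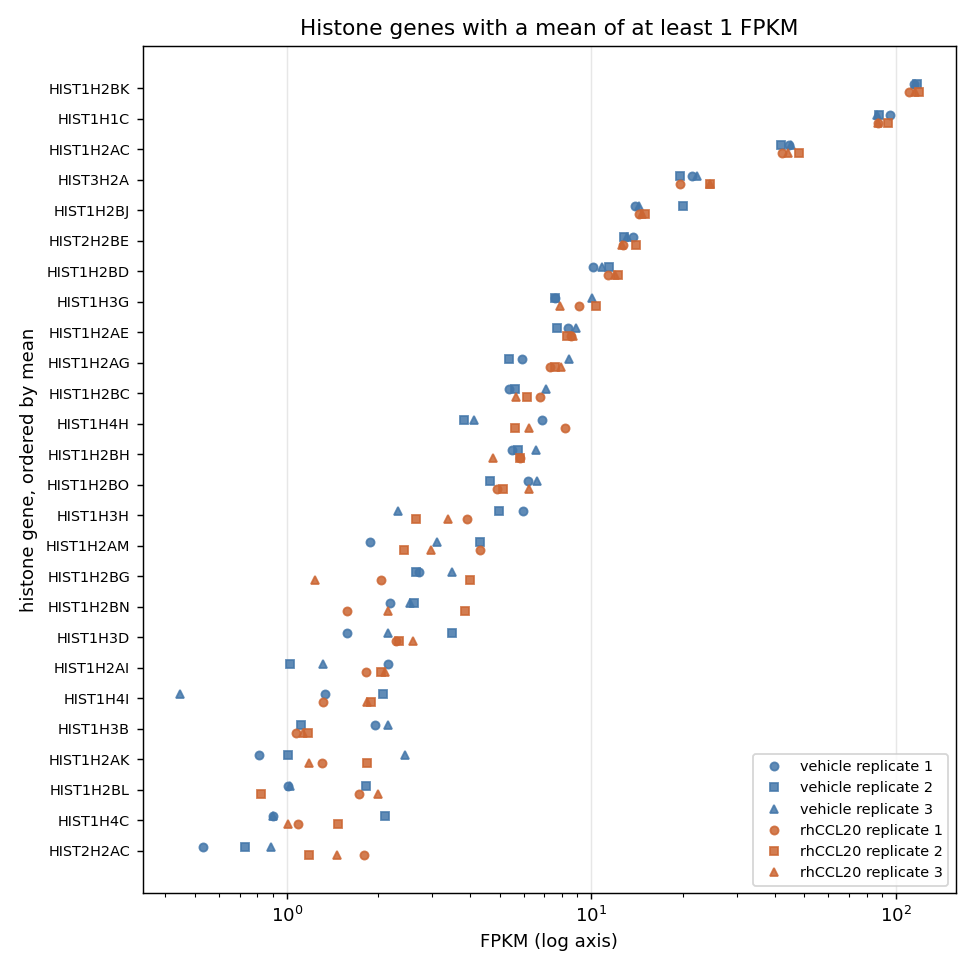
FPKM on a log axis of the 26 histone genes that averaged 1 FPKM or more, ordered by mean, with 1 point per library (blue, vehicle; orange, rhCCL20). HIST1H2BK, HIST1H1C and HIST1H2AC stand at 115, 89.8 and 44.4 FPKM in the mean, and points spread more widely toward the bottom of the plot.

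Among H1 genes, which encode the linker histone, 1 of 6 was abundant. Values by library are given in the order of replicates 1 to 3. HIST1H1C was at 95.3, 88.1 and 86.7 FPKM in vehicle and at 87.4, 94.0 and 87.5 FPKM with rhCCL20. The groups overlapped, and 1 library of each stood near 95 FPKM. HIST1H1E averaged 0.625 FPKM, HIST1H1A and the testis gene HIST1H1T averaged 0.036 and 0.021 FPKM, and HIST1H1B and HIST1H1D were listed at 0 in all libraries.

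H2B genes made up 46.2% of the summed histone FPKM. HIST1H2BK was at 115, 118 and 115 FPKM in vehicle and at 110, 119 and 115 FPKM with rhCCL20, so that the values interleaved. Its mean exceeded that of 95.9% of the 10263 genes tested. HIST1H2BJ was at 13.9, 20.0 and 14.3 FPKM in vehicle and at 14.3, 15.0 and 14.7 FPKM with rhCCL20. Vehicle replicate 2 alone was high, and the other 5 libraries lay close together. HIST2H2BE was at 13.7, 12.8 and 13.1 FPKM in vehicle and at 12.7, 14.05 and 12.6 FPKM with rhCCL20. HIST1H2BC was at 5.36, 5.63 and 7.11 FPKM in vehicle and at 6.80, 6.14 and 5.68 FPKM with rhCCL20. Both genes overlapped between groups. HIST1H2BH was at 5.50, 5.76 and 6.59 FPKM in vehicle and at 5.83, 5.83 and 4.77 FPKM with rhCCL20. HIST1H2BO was at 6.18, 4.66 and 6.62 FPKM in vehicle and at 4.90, 5.11 and 6.24 FPKM with rhCCL20. In both the highest value was in vehicle replicate 3. HIST1H2BG averaged 2.96 FPKM under vehicle and 2.42 FPKM under rhCCL20, and HIST1H2BN 2.44 and 2.53 FPKM. Of 18 H2B genes, 10 had a mean of at least 1 FPKM and 3 were listed at 0, HIST1H2BA, a testis form, HIST1H2BB and HIST1H2BE.

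H2A genes held 23.1% of the sum. HIST1H2AC was at 44.5, 42.0 and 45.3 FPKM in vehicle and at 42.2, 48.0 and 44.3 FPKM with rhCCL20. HIST3H2A was at 21.4, 19.5 and 22.3 FPKM in vehicle and at 19.5, 24.5 and 24.5 FPKM with rhCCL20. Of HIST3H2A, 2 of the treated libraries lay above all vehicle libraries and 1 lay among them. HIST1H2AE was at 8.37, 7.72 and 8.90 FPKM in vehicle and at 8.57, 8.30 and 8.68 FPKM with rhCCL20. HIST1H2AG was at 5.91, 5.37 and 8.45 FPKM in vehicle and at 7.32, 7.58 and 7.95 FPKM with rhCCL20. For both genes the treated values fell inside the vehicle range. HIST1H2AM averaged 3.10 FPKM under vehicle and 3.23 FPKM under rhCCL20, and HIST1H2AK 1.42 and 1.44 FPKM. Of 17 H2A genes, 8 had a mean of at least 1 FPKM, and HIST1H2AA, a testis form, and HIST1H2AL were listed at 0.

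H3 and H4 genes together gave little of the sum, at 4.63% and 2.94%. HIST1H3G, an H3 gene, was at 7.60, 7.59 and 10.01 FPKM in vehicle and at 9.11, 10.4 and 7.90 FPKM with rhCCL20. HIST1H4H, an H4 gene, was at 6.88, 3.81 and 4.13 FPKM in vehicle and at 8.21, 5.63 and 6.24 FPKM with rhCCL20. In both genes the groups overlapped. HIST1H3H averaged 4.42 FPKM under vehicle and 3.32 FPKM under rhCCL20, and HIST1H3D 2.40 and 2.41 FPKM. In the same order HIST1H4I averaged 1.28 and 1.68 FPKM, and HIST1H4C 1.30 and 1.19 FPKM. Of 15 H3 genes 6 were listed at 0, and of 15 H4 genes 3 were.

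The clusters differed in how many of their genes were seen. Of 55 HIST1 genes, which lie on chromosome 6, 23 had a mean of at least 1 FPKM and 12 were listed at 0. Of 12 HIST2 genes on chromosome 1, HIST2H2BE and HIST2H2AC reached that mean and 3 were listed at 0. Of 3 HIST3 genes, also on chromosome 1, HIST3H2A averaged 21.9 FPKM, HIST3H2BB 0.920 FPKM, and the testis gene HIST3H3 was listed at 0. HIST4H4 on chromosome 12 averaged 0.716 FPKM.

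The abundant genes more often had an annotated transcript that runs on after the stop codon. In GENCODE 29 a coding transcript with over 200 bases after the stop codon was annotated for 10 of the 14 members with a mean of at least 5 FPKM. The same held for 14 of the 26 with a mean of at least 1 FPKM and for 11 of the 45 below it. These counts were made after the levels were seen and carry no test. In HIST2H2BE the annotated transcript runs 1729 bases past the stem-loop, in HIST1H2AG 1761, in HIST1H2BH 1640, in HIST1H2AC up to 1128 and in HIST3H2A 390. The 4 abundant members without such a transcript were HIST1H2BK, HIST1H1C, HIST1H2AE and HIST1H2BO. For HIST1H2BK the GENCODE model is the coding region of 381 bases, whereas the RefSeq gene, now named H2BC12, spans 8566 bases. Long annotated forms were no guarantee of a high level, since HIST2H3A and HIST2H3C, with 1209 bases after the stop codon, were listed at 0. The gene lengths behind the deposited FPKM were not known here. If each gene had 1 fixed length, another length would rescale it by the same factor in every library. Whether the length was fixed is not given in the sources used here.

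**Figure D2:**
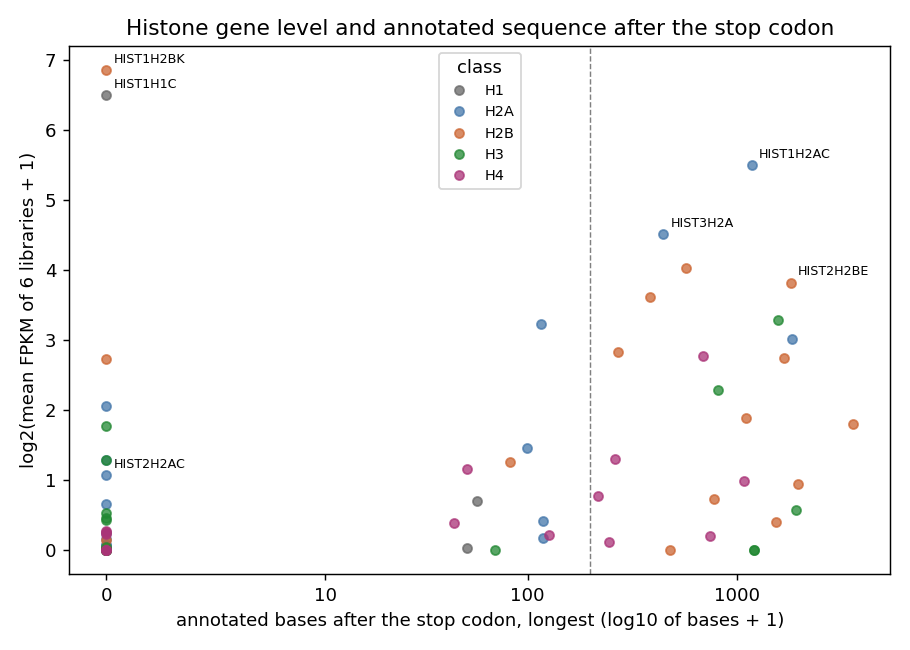
Level of all 71 members, as log2 of the mean FPKM of 6 libraries plus 1, against the largest number of bases annotated after the stop codon in a coding transcript (log10 of bases + 1), coloured by histone class, with a dashed line at 200 bases. HIST1H2BK and HIST1H1C stand at 0 annotated bases and at the top of the plot, and 10 of the 14 members of at least 5 FPKM lie right of the line.

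Many members resemble each other closely. The coding sequence most alike within the same class matched at 61.7% to 100% of bases, with a median of 89.1%, and 8 members had an identical copy. These were HIST2H2AA3 with HIST2H2AA4, HIST2H4A with HIST2H4B, HIST2H3A with HIST2H3C, and HIST1H4J with HIST1H4K. All 8 had a mean under 1 FPKM, and their values are uncertain because fragments can be divided among copies. Summed as a pair, HIST2H2AA3 and HIST2H2AA4 did not enter the test, since the sum stayed below the filter on low values. Of the abundant genes HIST1H2BK was most like HIST1H2BE, at 94.0% of bases, and HIST1H2BE was listed at 0. On the same strand 9 members overlap another annotated gene, and 11 do so on the opposite strand, where the strand setting of the authors is not given in the sources used here. HIST1H2AK and HIST1H2BN overlap on opposite strands, and HIST1H2AM and HIST1H3J on the same strand.

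H2A and H2B genes often stand head to head, and within some of these pairs the levels lay far apart while in others they were close. With a limit of 1000 bases between annotated starts, 11 divergent pairs of an H2A with an H2B gene were found, with starts 219 to 331 bases apart. Both genes had a mean of at least 1 FPKM in 6 pairs, 1 gene did in 2 pairs, and neither did in 3. HIST1H2BK at 115 FPKM faces HIST1H2AH at 0.189 FPKM. HIST3H2A at 21.9 FPKM faces HIST3H2BB at 0.920 FPKM, and HIST2H2BE at 13.1 FPKM faces HIST2H2AC at 1.0975 FPKM. In contrast HIST1H2AI and HIST1H2BL, whose starts lie 268 bases apart, averaged 1.74 and 1.40 FPKM, and HIST1H2AD and HIST1H2BF 0.578 and 0.664 FPKM. HIST1H2AA and HIST1H2BA were both listed at 0. HIST1H2AG and HIST1H2BJ averaged 7.10 and 15.4 FPKM. No test was made of these differences in level.

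**Figure D3:**
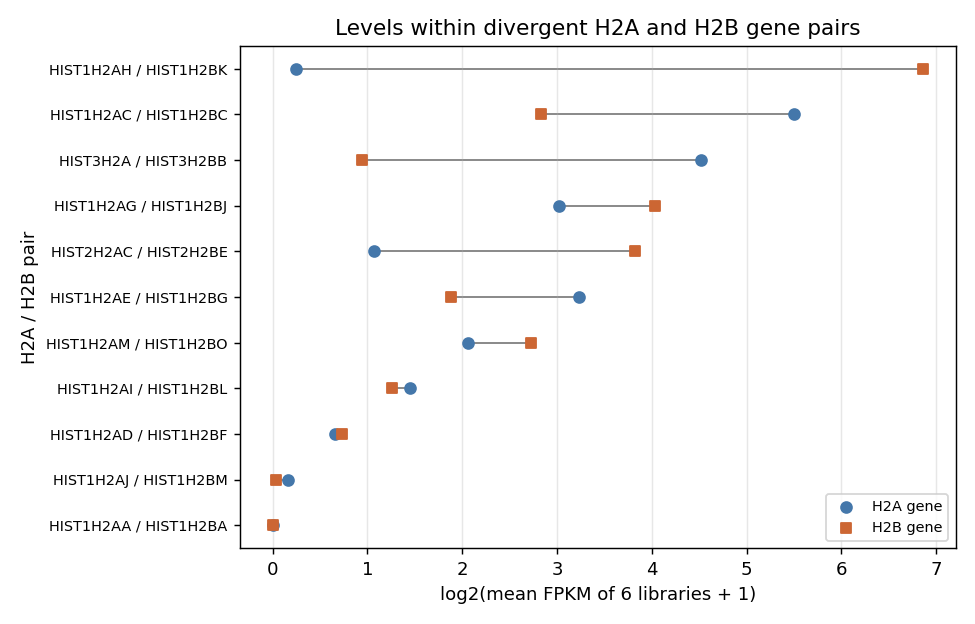
Mean level of both genes in each of the 11 divergent H2A (circle) and H2B (square) pairs, as log2 of the mean FPKM of 6 libraries plus 1, ordered by the higher gene. The line joining the symbols is long for HIST1H2AH with HIST1H2BK, at 0.189 and 115 FPKM, and short for HIST1H2AI with HIST1H2BL, at 1.74 and 1.40 FPKM.

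Promoter sequences are shown for the most abundant member, for an H2B gene listed at 0 and for HIST2H2AC, so that their shared elements can be compared. The windows run from 250 bases before to 50 after the start of the gene in RefSeq (GRCh38.p14), read on the gene's strand. Capitals mark 3 motifs on either strand, and adjoining or overlapping matches run together. The first is CCAAT. Another is the TATA box, searched as TATAAA. The octamer known from H2B promoters was searched as ATTTGCAT. HIST1H2BK is at chr6:27146809-27147108 on the minus strand, HIST1H2BE at chr6:26183511-26183810 on the plus strand and HIST2H2AC at chr1:149886668-149886967 on the plus strand.
HIST1H2BK: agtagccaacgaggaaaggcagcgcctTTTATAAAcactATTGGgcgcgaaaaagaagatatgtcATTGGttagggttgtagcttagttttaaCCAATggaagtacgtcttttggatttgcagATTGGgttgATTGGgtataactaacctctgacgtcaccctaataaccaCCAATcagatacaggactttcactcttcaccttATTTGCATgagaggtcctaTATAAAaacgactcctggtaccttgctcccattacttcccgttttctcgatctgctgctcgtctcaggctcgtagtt
HIST1H2BE: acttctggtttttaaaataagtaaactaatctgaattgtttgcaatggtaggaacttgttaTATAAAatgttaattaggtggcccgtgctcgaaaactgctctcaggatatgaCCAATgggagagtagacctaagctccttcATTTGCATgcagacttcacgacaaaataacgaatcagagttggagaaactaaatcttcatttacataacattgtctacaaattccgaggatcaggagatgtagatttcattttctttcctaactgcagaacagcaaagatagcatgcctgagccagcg
HIST2H2AC: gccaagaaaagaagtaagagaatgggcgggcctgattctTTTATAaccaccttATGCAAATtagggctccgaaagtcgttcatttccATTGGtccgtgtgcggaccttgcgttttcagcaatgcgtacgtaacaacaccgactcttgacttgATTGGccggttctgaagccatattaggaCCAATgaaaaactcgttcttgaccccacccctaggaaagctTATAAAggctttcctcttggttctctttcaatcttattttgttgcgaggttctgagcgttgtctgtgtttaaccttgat
All 3 windows hold the octamer. In HIST2H2AC it is the reverse form ATGCAAAT, toward the end of the window nearer to HIST2H2BE. CCAAT occurs 6 times in the first window, 1 time in the second and 3 times in the third. Of 66 members with a promoter in the table, CCAAT was in 56 (84.8%), against 34.6% of all 35116 promoters. TATAAA was in 44 of 66 (66.7%), against 11.5% of all promoters. The octamer was in 26 of 66 (39.4%), against 1.77% of all. It was in 14 of 18 H2B windows and 11 of 16 H2A windows, and in 1 of 13 H3 windows, 0 of 13 H4 windows and 0 of 6 H1 windows. Annotated starts of divergent H2A and H2B pairs lie 219 to 331 bases apart. The windows of paired genes can therefore share bases, and 1 match can count for both genes. CCAAT was in 3 of 13 H4 windows and in every window of the other classes. Among members with a mean of at least 1 FPKM, CCAAT was in 24 of 25 windows and the octamer in 13. Among those below, CCAAT was in 32 of 41 and the octamer in 13. Class was not held fixed in these counts. A mean of at least 1 FPKM was reached by 1 of 6 H1, 8 of 17 H2A and 10 of 18 H2B genes. It was reached by 4 of 15 H3 and 3 of 15 H4 genes. The part of class was not tested. A match describes the letters and is not evidence of a bound site.

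The comparison of rhCCL20 with vehicle asked whether histone genes changed after 24 h with the chemokine. No histone gene passed the test. HIST2H2AC, which encodes an H2A protein, had the smallest p-value of the members, and its treated libraries lay above all vehicle libraries. The test was made on log2(FPKM + 1) for genes that reached 1 FPKM in 3 or more libraries. This scale understates the change of low genes. The filter left 26 of the 71 members, the same 26 that had a mean of at least 1 FPKM. At a Benjamini-Hochberg adjusted p of 0.05 in limma, 0 of the 26 passed, where 0.00974% of all 10263 genes tested did. At an unadjusted p under 0.05 there were 3 of the 26 (11.5%), where 4.73% of all genes were. Of these 3, 2 were higher with rhCCL20, where 2.57% of all genes were, and 1 was lower, where 2.15% were. Groups did not overlap for 1 of the 26 (3.85%), where 11.0% of all genes had groups that did not overlap. That member, HIST2H2AC, was higher with rhCCL20, as were 6.88% of all genes, with 4.13% lower. HIST2H2AC was also 1 of the 3 with an unadjusted p under 0.05 in limma. It met the filter through its rhCCL20 libraries alone, so both counts include a gene admitted only by the group where it was high. The log2 fold change was above 0 for 15 members and below 0 for 11, where 57.8% of all genes lay above 0. Its median was 0.03 over the members and 0.01 over all genes tested.

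The summed histone level differed between the groups by less than the spread between treated libraries. The vehicle libraries summed to 390, 386 and 392 FPKM and the rhCCL20 libraries to 382, 411 and 392 FPKM. The mean sum was 389 ± 2.8 FPKM under vehicle (SD, n = 3) and 395 ± 15 FPKM under rhCCL20 (SD, n = 3). The treated libraries lay on both sides of the vehicle libraries, and rhCCL20 replicate 2 was high. The difference of 5.27 FPKM turned to -2.65 FPKM without rhCCL20 replicate 2 and was 11.7 FPKM without rhCCL20 replicate 1. In rhCCL20 replicate 3, the library that stood apart over all genes, the sum lay among the others. The number of members that reached 1 FPKM did separate the groups, at 23, 25 and 25 in vehicle and 27, 27 and 29 with rhCCL20. HIST2H2AC counts toward it in every treated library and in no vehicle library. Over all genes the number at 1 FPKM was 10220, 10198 and 10238 in vehicle and 10191, 10198 and 10221 with rhCCL20, with overlap. The number of members above 0 also overlapped, at 46, 43 and 42 in vehicle and 44, 47 and 45 with rhCCL20. Members with a mean under 1 FPKM summed to 8.02, 6.46 and 9.43 FPKM in vehicle and 8.92, 9.61 and 10.6 FPKM with rhCCL20, again with overlap. The part of relative depth, which was also estimated as higher in the treated libraries, was not tested. By class (mean ± SD, n = 3 each, vehicle first), H2A genes summed to 87.4 ± 5.1 and 94.1 ± 4.1 FPKM and H2B genes to 182 ± 5.5 and 179.9 ± 7.6 FPKM. H1 genes summed to 90.6 ± 4.5 and 90.4 ± 4.0 FPKM, H3 genes to 18.8 ± 0.71 and 17.6 ± 0.93 FPKM, and H4 genes to 10.3 ± 2.2 and 12.8 ± 1.4 FPKM. No test was made of these sums and numbers.

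HIST2H2AC, now named H2AC20, lies on chromosome 1 from 149886975 to 149887364 on the plus strand of GRCh38, where GENCODE gives 1 transcript of 390 bases that holds only the coding region. Its vehicle libraries read 0.533, 0.731 and 0.885 FPKM and its rhCCL20 libraries 1.80, 1.18 and 1.46 FPKM. All 3 treated libraries lay above all 3 vehicle libraries, an order for which an exact test of 3 against 3 can give no p below 0.1. The vehicle mean was 0.716 ± 0.18 FPKM (SD, n = 3), against 1.48 ± 0.31 FPKM (SD, n = 3) under rhCCL20. The log2 fold change of FPKM + 1 was 0.53 (SE 0.10, 95% interval 0.30 to 0.76), with a limma adjusted p of 0.704. Over the alternatives in which it was tested the adjusted p in limma ran from 0.700 to 1.00.

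The reading of HIST2H2AC is limited by its low level. It reached 1 FPKM in the rhCCL20 libraries alone, so the group with the higher values alone carried it past the filter, and without any 1 of those libraries it was not tested. With the filter set on the mean of all 6 libraries its adjusted p in limma was 0.797, and with no filter it was 0.910. Its mean lay at percentile 1.8 of the genes tested. The H4 gene HIST1H4B was listed at 0 in both rhCCL20 replicates 1 and 3 and at 0.224 to 0.248 FPKM in the other 4 libraries, near-equal values that look like single fragments. Estimated relative depth was higher in the rhCCL20 libraries, though nearly equal in replicate 1 of both groups. The summed blood cell markers ranged from 1.30 to 11.9 FPKM in vehicle and from 6.12 to 8.75 FPKM with rhCCL20. The tested markers LYZ and S100A9 were high in vehicle replicate 1 and below all treated libraries in the other vehicle libraries. Of the untested markers, PTPRC, CD3E, CD79A and HBB had lower means with rhCCL20, and CD14 and S100A8 had higher ones. The part of depth or of these markers in this result was not tested. HIST2H2BE, which shares the divergent promoter region, had a log2 fold change of -0.01 (95% interval -0.13 to 0.11) with a limma adjusted p of 0.988. In the close copy HIST2H2AA4, with 94.1% of coding bases alike, the means were 0.044 FPKM in vehicle and 0.203 FPKM with rhCCL20. Its identical copy HIST2H2AA3 was at 0.259 and 0.404 FPKM in the same order, and both copies had overlapping groups and were not tested.

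HIST1H2BL, an H2B gene now named H2BC13, lies on chromosome 6 from 27807444 to 27807931 on the minus strand. It was at 1.01, 1.82 and 1.03 FPKM in vehicle and at 1.73, 0.823 and 1.995 FPKM with rhCCL20. In each group replicate 2 stood apart, high in vehicle and low with rhCCL20, and the groups overlapped. The log2 fold change was 0.13 (SE 0.18, 95% interval -0.29 to 0.54), with a limma adjusted p of 0.949. Left-out libraries moved it from -0.02 without rhCCL20 replicate 3 to 0.34 without rhCCL20 replicate 2. Its divergent partner HIST1H2AI was at 2.14, 1.02 and 1.32 FPKM in vehicle and at 1.82, 2.03 and 2.10 FPKM with rhCCL20. Vehicle replicate 1 lay above all treated libraries and the other vehicle libraries below them. The log2 fold change of HIST1H2AI was 0.28 (95% interval -0.02 to 0.58), with a limma adjusted p of 0.937, and it ran from 0.14 without vehicle replicate 2 to 0.46 without vehicle replicate 1.

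**Figure D4:**
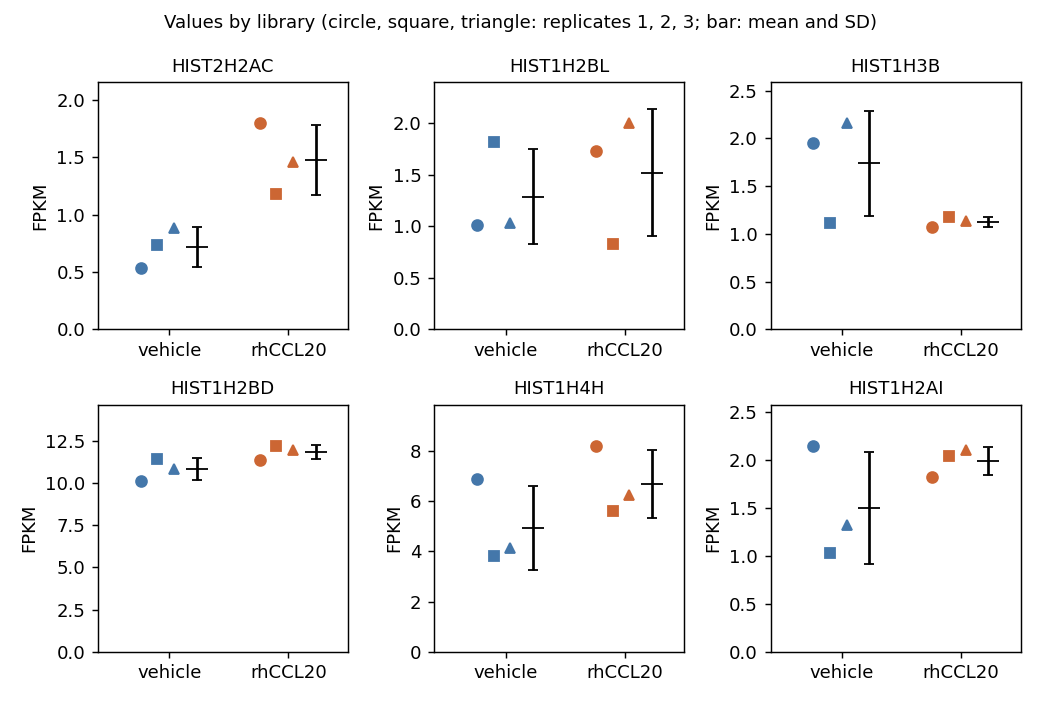
FPKM by library of HIST2H2AC, HIST1H2BL and the 4 further members with the smallest p-values, with the symbol giving the replicate and the bar the mean and SD of 3 libraries. In HIST2H2AC the 3 vehicle libraries lie between 0.533 and 0.885 FPKM and the 3 rhCCL20 libraries between 1.18 and 1.80 FPKM, while in the other 5 genes the groups overlap.

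Of the other members with small unadjusted p-values, none kept the groups apart. HIST1H3B, an H3 gene, was at 1.95, 1.12 and 2.16 FPKM in vehicle and at 1.07, 1.17 and 1.13 FPKM with rhCCL20. Vehicle replicate 2 lay among the treated libraries and the other vehicle libraries above them. The log2 fold change of HIST1H3B was -0.35 (SE 0.13, 95% interval -0.63 to -0.06), with a limma adjusted p of 0.937. On leaving out libraries it ran from -0.23 without vehicle replicate 3 to -0.52 without vehicle replicate 2, where its limma adjusted p of 0.192 was the lowest of any member in any alternative. HIST1H2BD, an H2B gene, was at 10.1, 11.4 and 10.8 FPKM in vehicle and at 11.4, 12.2 and 11.97 FPKM with rhCCL20. Here vehicle replicate 2 and rhCCL20 replicate 1 nearly coincided. The log2 fold change of HIST1H2BD was 0.12 (SE 0.05, 95% interval 0.00 to 0.24), with a limma adjusted p of 0.937, and 0.081 to 0.161 over the left-out libraries. HIST1H4H had a log2 fold change of 0.40 (SE 0.18, 95% interval -0.0003 to 0.79) with a limma adjusted p of 0.937. With libraries left out it ran from 0.26 without rhCCL20 replicate 1 to 0.62 without vehicle replicate 1, and it was also near the lower end without vehicle replicate 2.

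The abundant members were measured closely and the scarce ones loosely. The coefficient of variation over the 6 libraries lay between 2.44% and 28.7% for the 14 members of at least 5 FPKM, lowest for HIST1H2BK and highest for HIST1H4H. It lay between 25.9% and 43.2% for the 12 members of 1 to 5 FPKM. The residual SD on the log2 scale had a median of 0.206 over the 26 tested members and of 0.066 over all genes tested. The members and all genes were not matched on level or gene length. For 20 of the 26 genes neither bound of the 95% interval reached a 1.5-fold change of FPKM + 1. For none of the 26 did a bound reach 2-fold on that scale. The added 1 shrinks the change of genes near 1 FPKM, so their change of FPKM itself can be larger than these bounds. The log2 fold change of HIST2H2AC was 0.528 on this scale and 0.957 with a pseudocount of 0.1. For HIST1H2BK the 95% interval of FPKM + 1 ran from -0.10 to 0.07 on the log2 scale. For HIST1H1C it ran from -0.11 to 0.10 and for HIST1H2AC from -0.09 to 0.14. It was wide for HIST1H2BG, at -0.29 (-0.81 to 0.23), and for HIST1H3H, at -0.27 (-0.79 to 0.25).

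**Figure D5:**
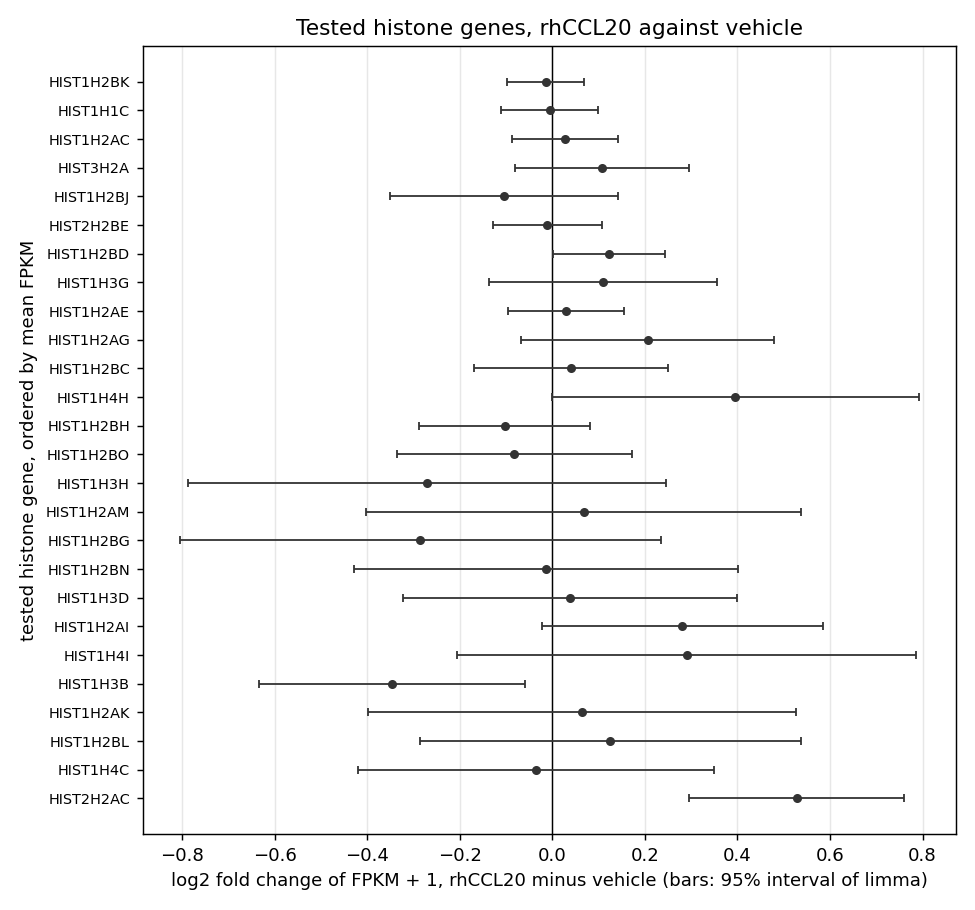
Log2 fold change of FPKM + 1, rhCCL20 minus vehicle, with the 95% interval of limma, for the 26 tested members ordered by mean FPKM. The median width of the interval is 0.372 for members of at least 5 FPKM and 0.827 for those of 1 to 5 FPKM. Intervals do not widen steadily toward scarce genes. They run from -0.10 to 0.07 for HIST1H2BK and from -0.81 to 0.23 for HIST1H2BG. HIST2H2AC, the tested member with the lowest mean, lies at 0.53 with an interval of 0.30 to 0.76.

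The 45 untested members averaged under 1 FPKM, up to 0.986 FPKM for HIST1H4E, and 29 of them were above 0 in some library. Groups did not overlap for 3 of these 29 (10.3%), where the share was 8.09% over all 6092 untested genes above 0. HIST1H2AD was at 0.236, 0.0018 and 0.0002 FPKM in vehicle and at 2.15, 0.631 and 0.445 FPKM with rhCCL20. Its lowest values lie far under the step seen for HIST1H4B, and the gene overlaps AL031777.3 on the same strand. HIST2H3D was at 0.896, 0.374 and 0.720 FPKM in vehicle and at 0.364, 0.339 and 0 FPKM with rhCCL20. The third was HIST1H4B. These genes are named after their values were seen. With no filter 55 members were tested and 0 passed in limma, with 5 (9.09%) at an unadjusted p under 0.05, where 5.26% of all genes were.

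Genes that act with these histones did not pass either. Of 25 tested genes of histone mRNA transcription and 3′ processing, 0 passed, where 0.00974% of all 10263 genes tested did. Of the 25, 14 were higher with rhCCL20 and 11 lower, where 57.8% of all genes lay above 0. Their median log2 fold change was 0.01, as it was over all genes tested. SLBP averaged 41.6 ± 0.82 under vehicle and 41.1 ± 1.2 FPKM under rhCCL20 (SD, n = 3 each). NPAT, which drives histone transcription, averaged 4.70 ± 0.078 and 4.76 ± 0.22 FPKM. CPSF2, a subunit of the cleavage complex, had the smallest p of this list, with a log2 fold change of 0.08 and a limma adjusted p of 0.937. Of 11 tested genes listed as replication-independent histones, 0 passed, with a median of 0.01. The means over 6 libraries of all 13 listed ran from 0.128 FPKM for H2AFY2 to 411 FPKM for H2AFZ. H3F3A at 322, H1FX at 200.8 and H3F3B at 139 FPKM also lay above HIST1H2BK, and the others, such as H2AFX at 84.6 and H1F0 at 45.4 FPKM, lay below it. H2AFJ had the smallest p, with a log2 fold change of -0.08. Of 20 histone chaperone genes 0 passed, with a median of 0.02 and the smallest p for ATRX, with a log2 fold change of 0.13. Of 20 S phase genes 0 passed, with a median of 0.01. PCNA, the sliding clamp of replication, averaged 242 ± 3.7 FPKM under vehicle and 246 ± 7.0 FPKM under rhCCL20 (SD, n = 3 each), and RRM2, a ribonucleotide reductase subunit, 176 ± 1.1 and 176 ± 3.5 FPKM.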

How the data were processed

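Total RNA of 6 samples was sequenced. The authors deposited 1 FPKM value per gene symbol and library, per the file headers. Per the submitters' processing notes, the tools were Cufflinks, HISAT2, HTSeq and Trimmomatic, and GRCh38 was the genome, with no version or role stated. FPKM hides the number of fragments, so no counting intervals are given. The test was limma 3.58.1 under R 4.3.3, with trended eBayes, on log2(FPKM + 1). It had group as its single term, a minimum of 1 FPKM in 3 or more libraries, and Benjamini-Hochberg adjustment over all genes tested. The procedure was tested on simulated data. The members and lists were chosen with earlier results of these data known. Genes described by library were HIST2H2AC, HIST1H2BL, members with a mean of at least 5 FPKM and the 5 tested members with the smallest p, 18 in all. Others were named after their values were seen, as examples. Gene models, positions and stem-loops are from GENCODE 29 and promoters from RefSeq, where all 71 members matched by symbol or synonym and position, and 66 had a promoter. The authors' annotation is not given in the sources used here. Blood cell, fibroblast and line markers were given as levels, and for LYZ and S100A9 the limma result was given too. Of the markers tested, 2 of blood cells, 3 of fibroblasts and 5 of the line, 0 passed.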

Additional observations from a re-analysis of the deposited data

How the results depend on the processing

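Alternatives were pseudocounts of 0.1 and 0.5, other filters on low values, quantile normalization, eBayes without trend, the replicate block, near-identical copies summed and each library left out. In all of them 0 histone genes passed in limma. The main setting called 1 gene of all tested, and no filter called 0, with 861 at an unadjusted p under 0.05. Leaving out each library called 1 to 3, with 3 without vehicle replicate 1. The cause was not tested. Of 267 alternative fold changes of 18 named members, 252 kept their direction and side of the threshold and 15 turned in direction, all on leaving out a library. These concerned 9 members with a fold change of at most 0.125 in size. Over the left-out libraries the log2 fold change ran from -0.04 to 0.036 for HIST1H1C, -0.021 to 0.069 for HIST1H2AC, -0.018 to 0.074 for HIST1H2AE, -0.028 to 0.147 for HIST1H2BC and -0.194 to 0.054 for HIST1H2BJ. It ran from -0.039 to 0.012 for HIST1H2BK, -0.016 to 0.342 for HIST1H2BL, -0.21 to 0.004 for HIST1H2BO and -0.059 to 0.016 for HIST2H2BE. The fold change of HIST2H2AC was 0.957 with a pseudocount of 0.1 and 0.701 with 0.5, against 0.528, and 0.449 to 0.598 without each vehicle library. The deviations from group means of libraries with the same number had correlations of -0.101, 0.035 and 0.097, too low to call them paired, and the replicate block called 0 histone genes and 1 gene of all. Leaving out libraries for the summed level was added after seeing the data. Without a known depth, members near 1 FPKM can be read only loosely.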
